A study of Arabidopsis thaliana with 22 samples.

Results

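Small heat shock proteins are chaperones that hold unfolding proteins and keep them from aggregating until larger chaperones refold them. The 10 genes described here were chosen by locus, as representatives of the family in each compartment of the plant cell, and they are 10 of the 25680 loci in the count table. HSP17.4 (AT3G46230), HSP18.2 (AT5G59720) and HSP17.6C (AT1G53540) encode class I proteins of the cytosol, and HSP17.6II (AT5G12020) and HSP17.6A (AT5G12030) class II proteins of the cytosol. HSP15.7 (AT5G37670) belongs to the peroxisome, HSP21 (AT4G27670) to the chloroplast, HSP23.6 (AT4G25200) and HSP23.5 (AT5G51440) to mitochondria and HSP22 (AT4G10250) to the endoplasmic reticulum (ER). Their transcripts were measured by RNA sequencing of mature Arabidopsis thaliana leaves of 4 lines with T-DNA insertions, hpr1-1, shm1-2, glyk1-1 and pglp1-1 (hpr1, shm1, glyk1 and pglp1 below), and of the wild type (WT). The mutants lack enzymes of photorespiration, the pathway that salvages carbon after Rubisco has bound oxygen: peroxisomal hydroxypyruvate reductase, mitochondrial serine hydroxymethyltransferase, glycerate kinase and phosphoglycolate phosphatase. Plants were raised at 1% CO2 (HC), where photorespiration is slow. The LC plants were shifted at the end of a night to 0.038% CO2, with light and temperature unchanged, and leaves of both conditions were taken 8 h into the light. Each mutant had 2 libraries per condition and the WT had 3, which gives 22 libraries in 10 groups. Each mutant is represented by 1 insertion line, and the labels do not say whether leaves of several plants were pooled.

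Small heat shock protein genes are best known from heat, when heat shock factors bind inverted GAA repeats in their promoters and raise transcripts from near 0. Several are also made in maturing seeds. The mitochondrial members are in addition known to respond when mitochondria are impaired. No heat was applied in this study, so the comparisons ask whether a shift to CO2 levels that drive photorespiration changes these transcripts in plants with a block in the pathway, and in which compartment.

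Library size ran from 5911382 counts (hpr1 LC replicate 1) to 194460991 counts (shm1 LC replicate 1). In WT LC replicate 3, 4919 rows (19.2%) carried the counts of nearby rows. HSP17.4 lies in such a block, so its value in that library was treated as missing and its WT LC group has n = 2. The targeted transcript was low in its own mutant: HPR1 was at 1.33 to 5.05 CPM (read counts scaled to library size by TMM) in hpr1 against 209 to 590 CPM in WT, and PGLP1 was at 4.62 to 12.4 CPM in pglp1 against 32.2 to 156 CPM in WT. SHM1 (23.7 to 110 CPM in shm1, 925 to 2408 CPM in WT) and GLYK (0.640 to 1.37 CPM in glyk1, 75.0 to 214 CPM in WT) were likewise apart. The summed level of 5 leaf mesophyll markers was 3424 to 86750 CPM in shm1, glyk1 and pglp1 LC, 34980 to 36120 CPM in hpr1 LC and 21740 to 89820 CPM in WT LC. All 6 mesophyll markers tested were lower in shm1 LC than in WT LC, and 0 of 6 were called in glyk1, pglp1 or hpr1. Of 8 seed maturation genes, summed over the 6 outside displaced rows, the level was 0.0345 to 5.89 CPM in shm1, glyk1 and pglp1 LC, 0 to 0.0193 CPM in hpr1 LC and 0 to 0.230 CPM in WT LC. SESA1, a seed storage albumin, was higher in pglp1 LC than in WT LC by 5.65 log2 units (adjusted p = 0.00828). The seed sum was 5.89 and 0.336 CPM in the 2 pglp1 LC libraries, so this rests mostly on replicate 1. CRU3 was at 0 in all 22 libraries. Of the root markers, 4 summed to at most 0.504 CPM. SCR, a root marker left out of that sum because it lies in a displaced row, was at 6.87 to 26.5 CPM and was lower in shm1 (-1.34), glyk1 (-0.99) and pglp1 LC (-1.03) than in WT LC. Of the floral markers, 4 summed to at most 2.18 CPM. Of 4 guard cell markers, 2 were higher in shm1 LC than in WT LC, 1 was higher in glyk1 LC, and 1 was higher and 1 lower in pglp1 LC; FMA was higher in each, by 1.41, 1.13 and 1.85. The part of these markers in the results was not tested. In leaves sequenced whole, more RNA per cell and more cells of one type cannot be told apart.

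Of the 10 members, 9 passed the filter on low counts and were tested, and HSP22 did not. HSP17.6II and HSP17.6A are neighbours on chromosome 5 and share 87.7% of their aligned coding bases, HSP17.4 and HSP17.6C share 85.6%, and HSP23.6 and HSP23.5 share 76.0%. No window of 50 bases was shared by members. HSP17.4 shared 11 of its 675 windows with AT3G46220, and the other members shared 0 with any gene. HSP17.4 overlaps AT3G46220 and the long non-coding RNA AT3G07365 on the opposite strand, and the library kit does not mark strand, so its counts may include reads of these.

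The promoters of both mitochondrial genes and of the 3 class I genes are shown, so that genes that rose can be set beside HSP18.2, a class I gene that was not called. Each window covers the 150 bases before the annotated gene start in TAIR10.1 (RefSeq), 5′ to 3′ on the gene's strand. Capitals mark the heat shock element cores GAANNTTC and TTCNNGAA and the mitochondrial dysfunction motif, which is CTTG followed after 5 bases by CAAG or CACG. HSP23.5 is at chr5:20891013-20891162 (+), HSP23.6 at chr4:12916776-12916925 (+), HSP17.4 at chr3:16984868-16985017 (-), HSP17.6C at chr1:19980149-19980298 (+) and HSP18.2 at chr5:24062173-24062322 (+).
HSP23.5: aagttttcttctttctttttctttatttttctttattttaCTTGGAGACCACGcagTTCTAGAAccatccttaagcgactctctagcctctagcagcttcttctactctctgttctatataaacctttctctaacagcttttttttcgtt
HSP23.6: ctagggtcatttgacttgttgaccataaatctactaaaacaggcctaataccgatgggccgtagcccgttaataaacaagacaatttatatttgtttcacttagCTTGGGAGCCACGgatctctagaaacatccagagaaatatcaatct
HSP17.4: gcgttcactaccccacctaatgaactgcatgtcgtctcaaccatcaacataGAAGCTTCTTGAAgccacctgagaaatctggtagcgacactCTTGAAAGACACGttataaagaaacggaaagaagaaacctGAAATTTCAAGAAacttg
HSP17.6C: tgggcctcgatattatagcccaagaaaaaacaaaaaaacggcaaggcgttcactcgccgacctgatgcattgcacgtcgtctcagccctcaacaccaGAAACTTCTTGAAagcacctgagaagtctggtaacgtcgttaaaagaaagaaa
HSP18.2: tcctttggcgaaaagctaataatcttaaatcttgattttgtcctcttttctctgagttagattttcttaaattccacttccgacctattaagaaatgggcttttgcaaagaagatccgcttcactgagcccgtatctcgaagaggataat

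Both strands of the 300 bases before each gene start were searched in 27443 promoters. The mitochondrial dysfunction motif stood in 1.37% of them and in 4 of the 10 members. HSP23.5 has CTTGGAGACCACG at -110 to -98 and HSP23.6 has CTTGGGAGCCACG at -46 to -34, counted from the gene start. The other 2 are HSP17.4 (CTTGAAAGACACG, -58 to -46) and HSP17.6II (CTTGTAATCCAAG, -220 to -208), of the cytosol. A longer heat shock element, 3 alternating GAA and TTC repeats with 2 bases between them, stood in 0.485% of promoters and in 2 members, HSP17.4 (GAAGCTTCTTGAA and GAAATTTCAAGAA) and HSP17.6C (GAAACTTCTTGAA). The shorter cores, which the longer element contains, are common: GAANNTTC stood in 11.5% and TTCNNGAA in 9.38% of promoters. HSP23.5 holds TTCTAGAA at -94 to -87. HSP18.2 has none of these motifs in its window, which says only that these letters are absent from it. Its annotated gene spans 978 bases, of which 486 are coding, and bases between the gene start and the coding region were not searched. The windows of HSP18.2, HSP17.6C, HSP17.6A and HSP23.5 reach into a neighbouring gene.

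In WT leaves the 10 members were close to silent, and the most abundant transcript among them was that of the peroxisomal member. On the scale of CPM per kilobase of transcript, which allows levels of genes to be compared, HSP15.7 averaged 3.93 ± 0.548 in WT LC and 3.42 ± 1.42 in WT HC (SD, n = 3 each). HSP23.5 followed at 2.22 ± 1.39 in WT LC and 0.466 ± 0.207 in WT HC, and HSP18.2 at 1.05 ± 0.201 and 1.52 ± 1.12. In WT LC the highest HSP23.5 library (3.67) exceeded the lowest HSP15.7 library (3.48), and the ranges of HSP23.5 and HSP18.2 overlapped too. HSP17.4, HSP17.6A, HSP17.6II, HSP21, HSP17.6C, HSP23.6 and HSP22 averaged 0.632 or less in WT LC. The shift to LC called 0 of 9 members in WT by edgeR, where 0.00489% of all tested loci were called higher and 0.0147% lower. At an unadjusted p under 0.05 there were 2 (HSP21 and HSP23.5), a count for which no share of all loci is given here. DESeq2 called 0 members and 207 of 20336 loci. HSP23.5 had 0.828, 1.88 and 3.34 CPM in WT LC and 0.354, 0.281 and 0.638 CPM in WT HC, groups that do not overlap, with a log2 difference of 2.35 (SE 0.90, adjusted p = 0.431). The test did not pair WT libraries of the same number, and whether they are pairs is not known. For HSP21, all 10 counts of WT LC were in replicate 1, against 0 counts in WT HC.

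**Figure D1:**
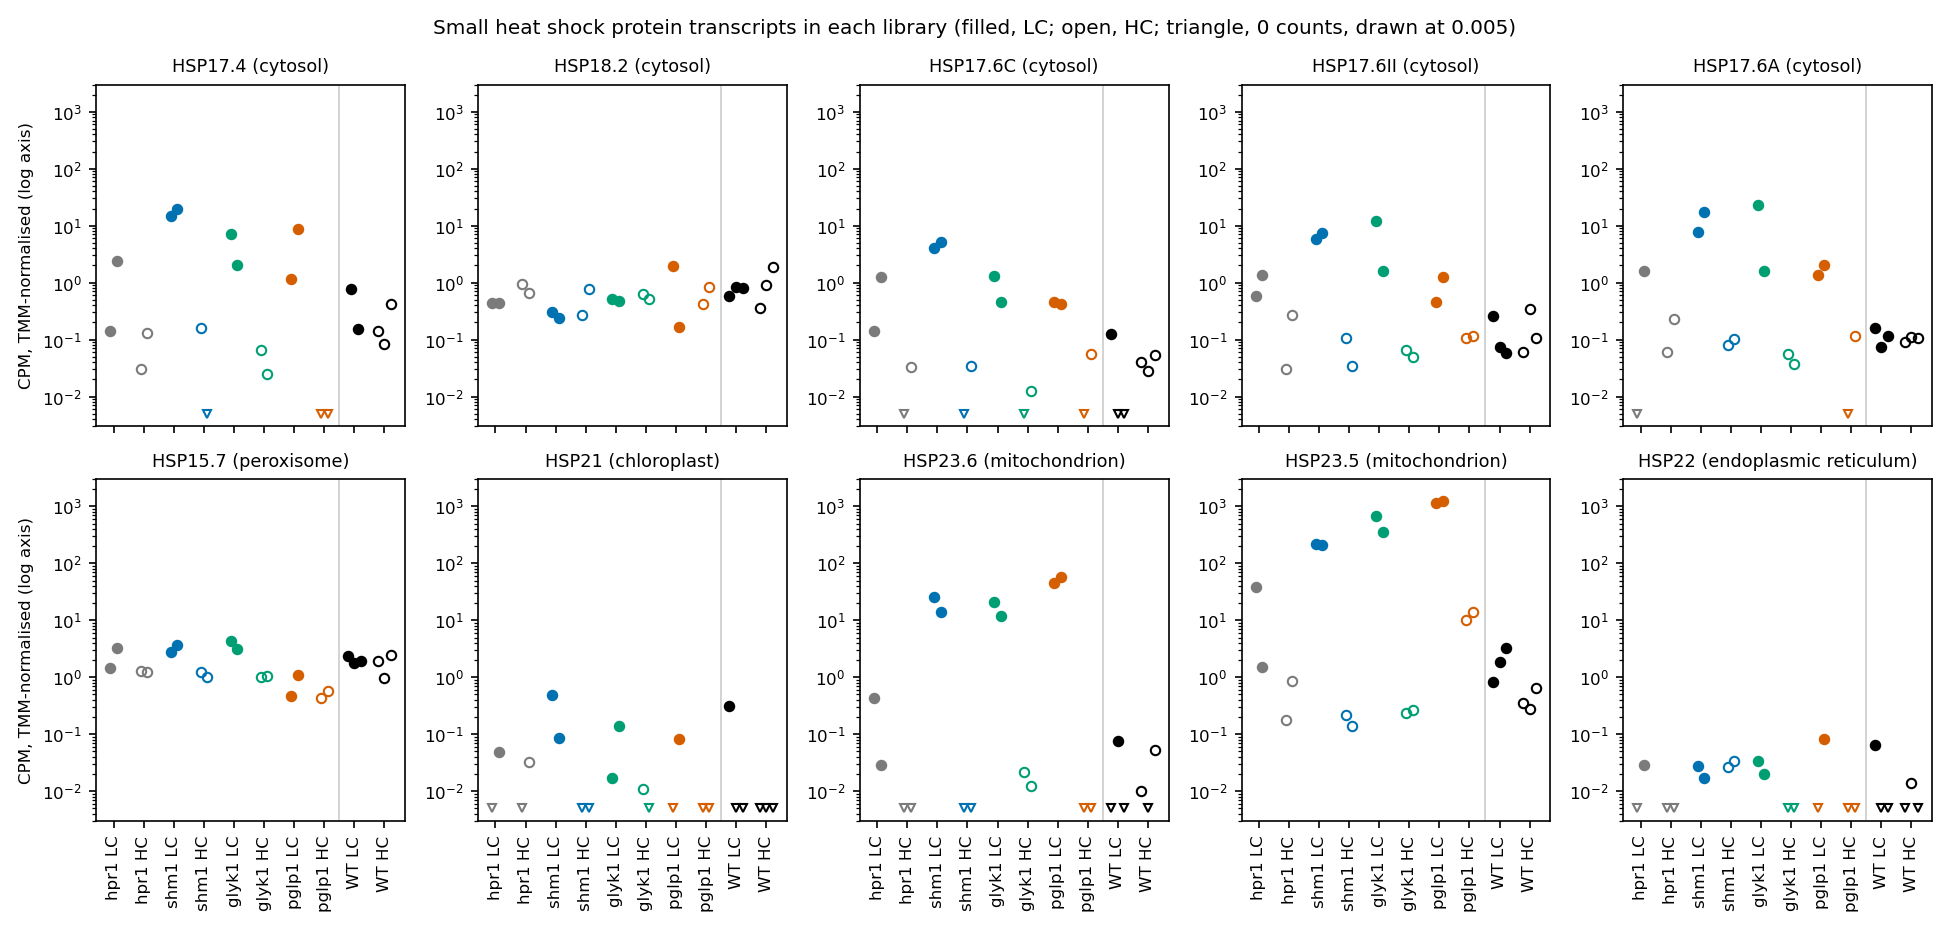
Transcript level of each member in each library, as TMM-normalised CPM on a log axis, by genotype and CO2 level. Filled points are LC and open points HC libraries, and triangles are libraries with 0 counts. HSP23.5 lies at 206 CPM or above in the LC libraries of shm1, glyk1 and pglp1, while HSP18.2 stays between 0.168 and 1.963 CPM in all 22 libraries.

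Both mitochondrial members rose in shm1, glyk1 and pglp1. HSP23.5 had 216 and 206 CPM in shm1 LC, 667 and 355 CPM in glyk1 LC and 1163 and 1238 CPM in pglp1 LC, against 0.828, 1.88 and 3.34 CPM in WT LC. The lowest of these mutant libraries was above the highest WT library. Between mutants, the log2 difference of pglp1 LC from glyk1 LC was 1.23 and that of shm1 LC from glyk1 LC was -1.27. Neither passed an unadjusted p under 0.05 (edgeR). Against WT LC the log2 differences were 6.74 (SE 0.97, adjusted p = 2.41e-05) in shm1, 8.02 (SE 1.02, adjusted p = 1.28e-05) in glyk1 and 9.25 (SE 1.07, adjusted p = 3.13e-06) in pglp1. Leaving out any 1 library kept these between 6.32 and 10.05, all called. Set against their own HC plants, the differences were 10.18 in shm1, 10.95 in glyk1 and 6.63 in pglp1, whose HC level was already raised.

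HSP23.6, the second mitochondrial member, had 26.1 and 13.7 CPM in shm1 LC, 21.1 and 11.8 CPM in glyk1 LC and 44.6 and 58.0 CPM in pglp1 LC. WT LC had 1 count of it in 3 libraries. The ratio to WT LC from summed counts was 1430 in shm1 (95% counting interval 257 to 56700), 1040 in glyk1 (187 to 41300) and 3250 in pglp1 (582 to 128000). The gene was called higher in the 3 mutants, with adjusted p at or below 2.92e-06. In HC it had 0 counts in hpr1, shm1 and pglp1, so that with 3 counts as a floor over the group LC was at least 510-fold higher in shm1 and at least 469-fold higher in pglp1. In glyk1, with 3 counts in HC, the ratio was 966 (330 to 4690). The level of HSP23.6 was far below that of its paralog: per kilobase it averaged 57.0 CPM against 1319 CPM for HSP23.5 in pglp1 LC.

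Of the 5 cytosolic members, 4 were higher in shm1, glyk1 and pglp1 LC than in WT LC. Against pglp1 HC, HSP17.6C (3.50) and HSP17.6II (2.96) were not called in pglp1 LC. The rise in pglp1 LC minus that of WT was not called for any cytosolic member. HSP17.4, a class I protein, had 14.8 and 19.9 CPM in shm1 LC, 7.19 and 2.03 CPM in glyk1 LC and 1.16 and 8.65 CPM in pglp1 LC, against 0.765 and 0.151 CPM in WT LC. The 3 mutant groups do not overlap WT, but the libraries of glyk1 and of pglp1 differ widely among themselves. The log2 difference was 5.06 (SE 1.20, adjusted p = 0.00211) in shm1, 3.16 (SE 1.13, adjusted p = 0.0300) in glyk1 and 3.27 (SE 1.16, adjusted p = 0.0257) in pglp1. The glyk1 call was lost without glyk1 LC replicate 1 (2.02, adjusted p = 0.225) or WT LC replicate 2 (2.59, adjusted p = 0.130), and the pglp1 call without pglp1 LC replicate 2 (1.29, adjusted p = 0.479) or WT LC replicate 2 (2.71, adjusted p = 0.111). In pglp1 HC it had 0 counts, and pglp1 LC was at least 49.2-fold higher.

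HSP17.6C, also of class I, had 4.02 and 5.09 CPM in shm1 LC, 1.33 and 0.459 CPM in glyk1 LC and 0.462 and 0.420 CPM in pglp1 LC, against 0.127, 0 and 0 CPM in WT LC. A count of 0 in these WT libraries allows up to 3 counts. Its log2 difference was 6.21 (SE 0.95, adjusted p = 3.84e-05) in shm1, 3.87 (SE 0.96, adjusted p = 0.00313) in glyk1 and 2.84 (SE 1.13, adjusted p = 0.0402) in pglp1. The pglp1 value rests on 9 counts, and leaving out either pglp1 LC replicate or WT LC replicate 2 or 3 gave adjusted p of 0.0778 to 0.103. In glyk1 the adjusted p was 0.0514 without glyk1 LC replicate 1.

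The class II genes HSP17.6A and HSP17.6II moved together. HSP17.6A had 7.74 and 17.55 CPM in shm1 LC, 23.3 and 1.58 CPM in glyk1 LC and 1.39 and 2.02 CPM in pglp1 LC, against 0.159, 0.0753 and 0.115 CPM in WT LC. HSP17.6II had 5.87 and 7.39 CPM in shm1 LC, 11.9 and 1.58 CPM in glyk1 LC and 0.462 and 1.26 CPM in pglp1 LC, against 0.255, 0.0753 and 0.0576 CPM in WT LC. Every library of the 3 mutants lies above every WT library for both genes, and glyk1 LC replicate 1 far exceeds replicate 2 in each. For HSP17.6A the log2 difference was 6.62 in shm1 (SE 1.08), 6.60 in glyk1 (SE 1.08) and 3.74 in pglp1 (SE 1.14), with adjusted p of 6.95e-05, 0.000118 and 0.0101. For HSP17.6II it was 5.45 in shm1 (SE 0.95), 5.48 in glyk1 (SE 0.95) and 2.55 in pglp1 (SE 1.05), with adjusted p of 0.000132, 0.000206 and 0.0465. Without glyk1 LC replicate 1 the glyk1 values were 3.68 and 3.44 and were still called. In pglp1 neither was called without pglp1 LC replicate 2 (adjusted p = 0.0576 for HSP17.6A and 0.363 for HSP17.6II), and HSP17.6II was not called without WT LC replicate 2 or 3.

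HSP18.2, a class I protein like HSP17.4 and HSP17.6C, was not called in any of the 23 comparisons. It had 0.301 and 0.242 CPM in shm1 LC, 0.522 and 0.479 CPM in glyk1 LC, 1.963 and 0.168 CPM in pglp1 LC and 0.433 and 0.445 CPM in hpr1 LC, against 0.573, 0.828 and 0.806 CPM in WT LC. The shm1, glyk1 and hpr1 libraries lie below the WT libraries, and the pglp1 libraries lie on both sides of them. The log2 difference was -1.40 (SE 0.77, adjusted p = 0.118) in shm1, -0.54 (SE 0.75) in glyk1, 0.49 (SE 0.79) in pglp1 and -0.72 (SE 0.81) in hpr1. These values rest on few counts (69 in shm1 LC and 43 in WT LC). Across libraries its correlation with the other members ran from -0.52 to -0.25, while the other 4 cytosolic members correlated with one another at 0.90 to 0.93 and the mitochondrial pair at 0.92 (log2 CPM, 21 or 22 libraries). These coefficients are descriptions, and the points share groups and library depth.

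For the peroxisome, the chloroplast and the ER there was 1 member each, and HSP21 and HSP22 had few counts. HSP15.7 of the peroxisome had 0.462 and 1.09 CPM in pglp1 LC, against 2.36, 1.81 and 1.957 CPM in WT LC, and was lower by 1.36 on the log2 scale (SE 0.48, adjusted p = 0.0221). The call rests on 17 counts in pglp1 LC and was lost without pglp1 LC replicate 1 (-0.75, adjusted p = 0.303) and without WT LC replicate 1 or 3. In shm1 LC it had 2.78 and 3.71 CPM and in glyk1 LC 4.34 and 3.13 CPM, above every WT library, yet 0.66 (SE 0.40) and 0.87 (SE 0.40) log2 units from WT LC did not pass. Against their own HC plants it rose by 1.53 in shm1 (adjusted p = 0.00781) and by 1.83 in glyk1 (adjusted p = 0.00289). In pglp1 LC it was at 0.64 against pglp1 HC and was not called. It was already at -1.78 in pglp1 HC against WT HC, also not called. The shm1 call was lost without shm1 HC replicate 2 (adjusted p = 0.0621). HSP21 of the chloroplast reached at most 0.481 CPM, in shm1 LC replicate 1, where 88 of its 93 shm1 LC counts lay. It was called higher in shm1 LC than in shm1 HC (adjusted p = 0.0290), at least 8.51-fold over a group with 0 counts, and this call was lost without shm1 LC replicate 1 (adjusted p = 0.166) and without shm1 HC replicate 1 or 2 (0.122 and 0.104). It was not called between any mutant and WT. HSP22 of the ER had 18 counts in all 22 libraries together, at most 0.0840 CPM, and 0 counts in 12 libraries, so a difference was not detectable at this depth.

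**Figure D2:**
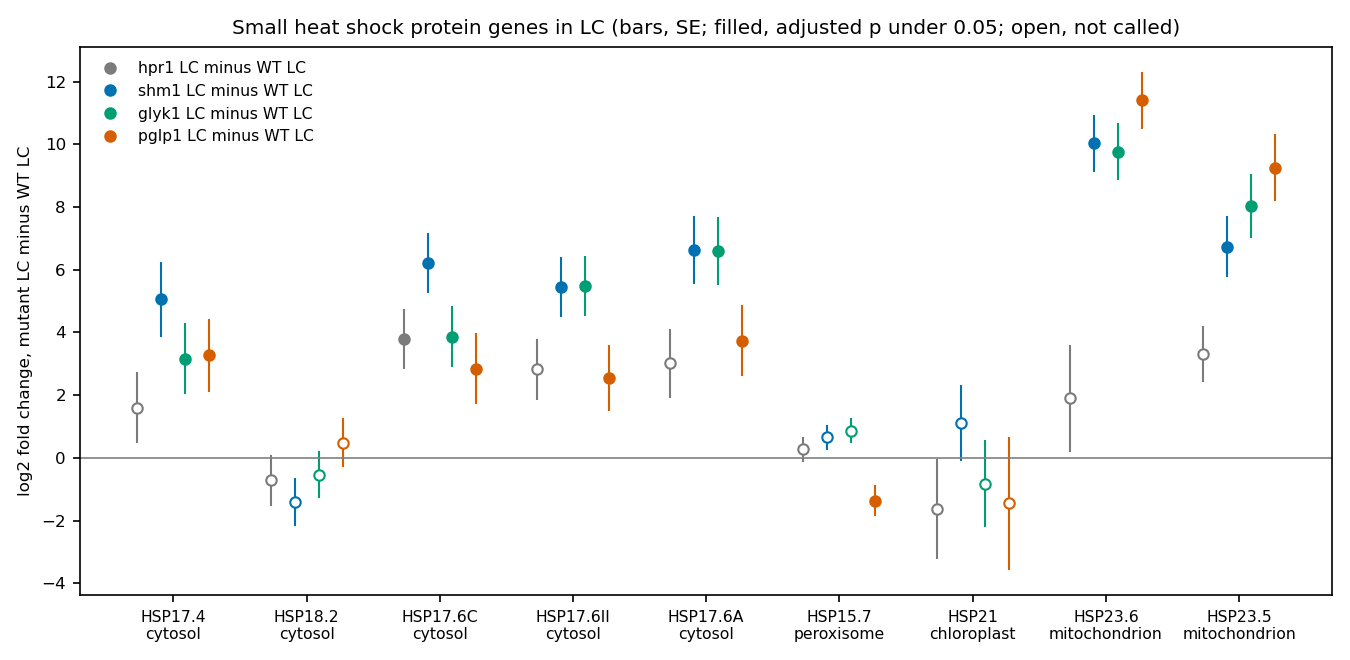
Log2 difference of each tested member between a mutant in LC and WT in LC, with SE bars; filled points have an adjusted p under 0.05. Values of HSP23.6 depend on the prior count because WT LC had 1 count. The mitochondrial genes lie highest in pglp1, HSP17.6C and HSP17.4 highest in shm1, and HSP18.2 on both sides of 0.

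Counted over the 9 tested members, 6 were higher and 0 lower in shm1 LC than in WT LC, where 31.3% of all tested loci were higher and 35.1% lower. In glyk1 LC 6 were higher and 0 lower (background 27% higher and 29.1% lower), and in pglp1 LC 6 were higher and 1 lower (background 26.1% higher and 34.5% lower). The 6 genes are the same in each: HSP17.4, HSP17.6C, HSP17.6II, HSP17.6A, HSP23.6 and HSP23.5. The median log2 difference of the members was 5.45 in shm1, 3.87 in glyk1 and 2.84 in pglp1, while the median of all tested loci was -0.12, -0.13 and -0.29. Leaving out 1 library left 6 calls in shm1 and 4 to 6 in glyk1 (4 without glyk1 LC replicate 1). In pglp1 it left 3 to 6 of 7 calls, the lower one of HSP15.7 included. There were 3 without pglp1 LC replicate 2 and 4 without WT LC replicate 2 or 3. Within genotypes, LC against HC called 8 higher in shm1 (background 31.9% higher and 33.4% lower), 7 in glyk1 (27.1% and 27.5%), 4 in pglp1 (24.3% and 32.3%) and 2 in hpr1 (8.38% and 6.95%), and 0 lower in each. The rise in LC minus that of WT was called for 6 members in shm1 (background 25.6% higher and 28.3% lower), 7 in glyk1 (20% and 19.3%), 2 in pglp1 (18.5% and 25.1%) and 0 in hpr1 (0.0783% and 0.0147%). For hpr1, 2 members passed an unadjusted p under 0.05, and DESeq2 called 0 members and 345 of 20336 loci. The mutants were compared with the same WT libraries, so these counts are not independent of one another. The filter on low counts also shapes them. HSP23.6, HSP17.6A and HSP17.6C had at most 0.0753, 0.233 and 0.127 CPM in any WT or HC library. They passed the filter through LC libraries of the mutants, where they are high, while HSP22 dropped out. The counts and medians are therefore descriptions, and no excess over all tested loci is drawn from them.

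The division of transcripts between compartments is given as a description. Summed per kilobase over the 10 members, the 2 mitochondrial genes made up 99.3% and 98.6% of this sum in pglp1 LC. They made up 91.0% and 96.4% in glyk1 LC and 83.3% and 74.9% in shm1 LC, against 10.7% and 29.7% in WT LC. In pglp1 HC they already made up 87.3% and 85%, and in hpr1 LC they made up 43.4 of 48.1 CPM per kilobase in replicate 1 and 1.72 of 18.5 in replicate 2 (9.31%). The 5 cytosolic genes made up 0.596% and 1.23% in pglp1 LC, 8.00% and 2.14% in glyk1 LC and 14.9% and 22.9% in shm1 LC, against 31.4% and 22.3% in WT LC. The summed cytosolic level was higher than in WT LC in all of these mutant libraries, at 7.96 to 74.0 CPM per kilobase against 2.69 and 1.62. WT LC replicate 3 was left out of these sums because HSP17.4 is missing there. The sums also leave out class I genes outside the 10 members, so the shares hold for the members only. In shm1, glyk1 and pglp1 LC, AT2G29500 averaged 154, 134 and 8.72 CPM. AT1G07400 averaged 73.6, 93.3 and 28.5 CPM, and AT1G59860 8.21, 47.2 and 6.31 CPM.

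**Figure D3:**
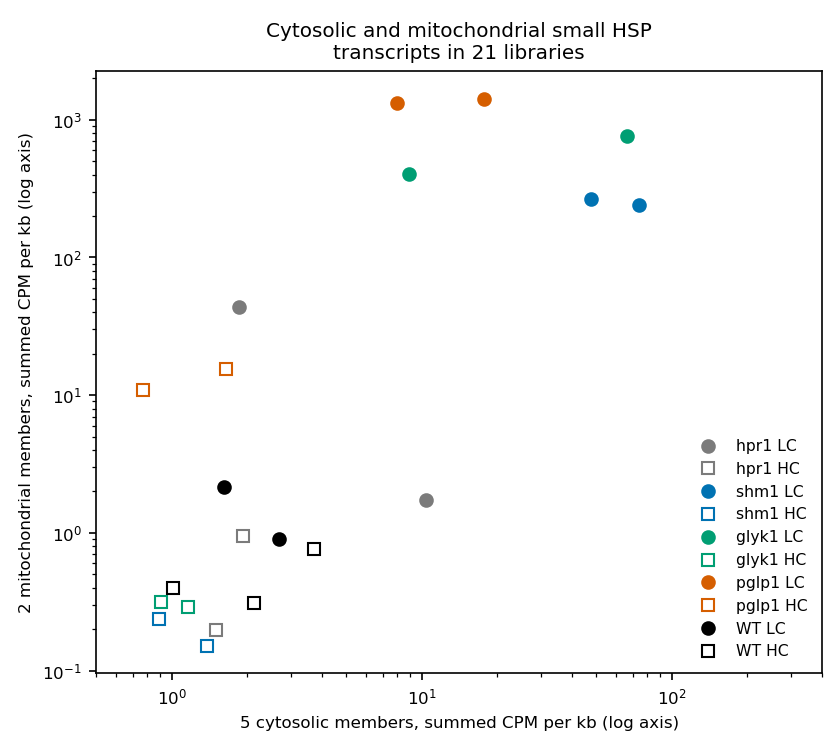
Summed level of the 5 cytosolic members (x axis) and of the 2 mitochondrial members (y axis) in each of 21 libraries, in CPM per kilobase on log axes; filled circles are LC and open squares HC libraries. The pglp1 LC libraries are highest on the mitochondrial axis (1328 and 1424) and the shm1 LC libraries lie to their right (47.7 and 74.0 on the cytosolic axis). The hpr1 LC libraries lie far apart.

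Tested directly, pglp1 LC was higher than shm1 LC for HSP23.5 by 2.51 log2 units (SE 0.94, adjusted p = 0.0338) and lower for HSP17.6C (-3.37, adjusted p = 0.00686), HSP17.6II (-2.90, adjusted p = 0.0194), HSP17.6A (-2.88, adjusted p = 0.0238) and HSP15.7 (-2.02, adjusted p = 0.00301). That is 1 member higher and 4 lower, where 24.6% and 29.5% of all tested loci were. The calls depend on single libraries. HSP23.5 was not called in any of the 4 omissions of 1 library (adjusted p of 0.0767 to 0.134), HSP17.6A lost its call in 3 of 4, HSP17.6C and HSP17.6II in 2 of 4 and HSP15.7 in 1 of 4. Without pglp1 LC replicate 1 there were 0 calls, and without shm1 LC replicate 2 there were 2. Against glyk1 LC, pglp1 LC was higher for HSP23.6 (1.64, adjusted p = 0.0337; background 17.7%) and lower for HSP17.6II (-2.93), HSP17.6A (-2.85) and HSP15.7 (-2.22, adjusted p = 0.00221; background 26.5%). The class II differences came with glyk1 LC replicate 1: without it HSP17.6A reversed to 0.22 (adjusted p = 0.893) and HSP17.6II was at -0.74 (adjusted p = 0.600), and without pglp1 LC replicate 1 there were 0 calls. HSP23.6 lost its call in 3 of 4 omissions (adjusted p up to 0.209). Between shm1 LC and glyk1 LC, HSP17.6C was higher in shm1 by 2.34 (adjusted p = 0.0334) and 0 members were lower (background 17% higher and 21.4% lower), and this call was lost without shm1 LC replicate 1 or 2 or glyk1 LC replicate 2. Against hpr1 LC, 6 members were higher and 0 lower in shm1 LC (background 26% and 29%), 4 and 0 in glyk1 LC (20% and 19.2%) and 2 and 1 in pglp1 LC (22.8% and 29.9%). HSP23.5 was among the higher in each, by 3.43 in shm1 (adjusted p = 0.00835), 4.70 in glyk1 (adjusted p = 0.00258) and 5.94 in pglp1 (adjusted p = 0.000380). Since the hpr1 LC libraries lie far apart, leaving out 1 library moved these to between 2.43 and 7.10, 3.71 and 8.38, and 4.94 and 9.61, called each time.

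In pglp1, HSP23.5 was above WT in unshifted plants too. It had 10.00 and 14.1 CPM in pglp1 HC, against 0.354, 0.281 and 0.638 CPM in WT HC, and was higher by 4.96 log2 units (SE 0.96, adjusted p = 0.0110). With WT HC replicate 2 left out it was 4.73 (adjusted p = 0.0546), and with pglp1 HC replicate 2 left out 4.55 (adjusted p = 0.143), neither of them called. It was the 1 member higher among 9, with 0 lower, where 2.44% of all tested loci were higher and 1.69% lower. HSP23.6 had 0 counts in both pglp1 HC libraries, which allows up to 0.322 and 0.171 CPM. HSP15.7 had 0.430 and 0.568 CPM in pglp1 HC, against 1.90, 0.983 and 2.45 CPM in WT HC, a difference of -1.78 (SE 0.49, adjusted p = 0.0534) that missed the threshold. In HC, hpr1, shm1 and glyk1 had 0 of 9 members called against WT by edgeR, with 0 at an unadjusted p under 0.05. By edgeR, 0% of all tested loci were higher and 0.00489% lower in hpr1 and in glyk1, and 0.00489% were higher and 0.00979% lower in shm1. DESeq2 called 0 members, and 7, 146 and 320 of 20336 loci in hpr1, shm1 and glyk1.

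The hpr1 mutant, which still has other routes to reduce hydroxypyruvate, gave LC libraries that lie far apart. HSP23.5 had 39.1 CPM in hpr1 LC replicate 1 and 1.54 CPM in replicate 2, against 0.828, 1.88 and 3.34 CPM in WT LC. The cytosolic genes had the opposite order: HSP17.4 had 0.144 and 2.42 CPM, HSP17.6A 0 and 1.58 CPM and HSP17.6C 0.144 and 1.28 CPM in replicates 1 and 2. Replicate 1, the shallowest library of the series, had 271 counts of HSP23.5, and replicate 2 had 159 among 91864826 counts in all. The part of depth was not tested. Compared with WT LC, 1 of 9 members was called higher (background 2.02% higher and 0.803% lower), HSP17.6C by 3.79 (SE 0.97, adjusted p = 0.0483). That call was lost without hpr1 LC replicate 1 (adjusted p = 0.0525), without hpr1 LC replicate 2 (adjusted p = 0.810), without WT LC replicate 2 or 3 and under most other settings. HSP23.5 differed by 3.31 (SE 0.88, adjusted p = 0.0570), with -0.36 without replicate 1 and 4.31 (adjusted p = 0.00129) without replicate 2. Against hpr1 HC, HSP23.5 (5.24, adjusted p = 0.0127) and HSP17.6C (5.53, adjusted p = 0.0152) were called, HSP23.5 not without hpr1 LC replicate 1 (1.57, adjusted p = 0.166) and HSP17.6C not without replicate 2 (2.98, adjusted p = 0.446). Neither was called without hpr1 HC replicate 1, nor HSP17.6C without hpr1 HC replicate 2 (adjusted p = 0.0557).

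Of 12 further genes with an alpha-crystallin domain, the fold that defines the family, 11 were tested. Relative to WT LC, 4 were higher and 2 lower in shm1 LC, 5 higher and 0 lower in glyk1 LC, 3 higher and 2 lower in pglp1 LC, and 0 in hpr1 LC. Their median log2 difference was 0.51, 0.87, 0.19 and 0.27 in shm1, glyk1, pglp1 and hpr1, against -0.12, -0.13, -0.29 and -0.02 for all tested loci. Of all tested loci, 31.3% were higher and 35.1% lower in shm1, 27% and 29.1% in glyk1 and 26.1% and 34.5% in pglp1, so the counts of higher genes in shm1 and pglp1 are near those shares. Among those that rose were AT1G07400 (7.36 in shm1, 7.70 in glyk1, 5.99 in pglp1) and AT1G59860 (4.65, 7.18 and 4.26), which encode class I proteins, and AT4G21870 (4.02, 5.26 and 3.38). AT2G29500, another class I gene, rose in shm1 (4.78) and glyk1 (4.58), with 0.65 (adjusted p = 0.466) in pglp1. ACD32.1, which averaged 483 CPM in WT LC and 435 CPM in WT HC, was lower in shm1 (-1.69) and pglp1 (-2.27).

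Heat shock factors include the activators of these genes (class A) and class B members, several of which act as repressors. Of 18 tested, 8 were higher and 4 lower in shm1 LC, 11 higher and 2 lower in glyk1 LC, 9 higher and 6 lower in pglp1 LC and 0 higher and 1 lower in hpr1 LC, with medians of 0.62, 1.28, 1.07 and 0.20. The share of all tested loci was 31.3% higher and 35.1% lower in shm1, 27% and 29.1% in glyk1 and 26.1% and 34.5% in pglp1, and the 6 lower of 18 in pglp1 are near it. HSFA2, the factor that prolongs heat responses, was higher by 4.42 in shm1 (adjusted p = 4.57e-06), 6.87 in glyk1 (adjusted p = 2.37e-07) and 6.78 in pglp1 (adjusted p = 1.66e-07), with 1.52 (adjusted p = 0.152) in hpr1. HSFA3 rose by 5.10 in glyk1 and 1.51 in pglp1, with 0.83 (adjusted p = 0.0804) in shm1, and HSFA7A by 2.58 in shm1, 4.59 in glyk1 and 1.87 in pglp1. HSF A4A rose by 2.90, 3.27 and 5.44 in shm1, glyk1 and pglp1, RHA1 by 1.49, 2.29 and 2.29, HSFB2A of class B by 3.68, 3.22 and 3.18, and HSF4 by 4.76, 3.49 and 2.13. The class A1 factors, which start the heat response, did not move together. HSFA1D was higher in shm1 (0.60) and glyk1 (0.71) and lower in pglp1 (-1.67). HSF3 was lower in shm1 (-1.38) and pglp1 (-1.57), with -0.38 (adjusted p = 0.165) in glyk1. HSF1 was lower in pglp1 (-1.08), with 0.16 (adjusted p = 0.575) in shm1 and 0.14 (adjusted p = 0.622) in glyk1. Among 10 tested cytosolic co-chaperones and heat-inducible genes, 8 were higher and 1 lower in shm1, 8 and 0 in glyk1, 7 and 1 in pglp1 and 0 in hpr1, with medians of 2.68, 3.67, 2.23 and 0.16. That stands against 31.3%, 27% and 26.1% of all tested loci higher and 35.1%, 29.1% and 34.5% lower in shm1, glyk1 and pglp1. Hop3, which couples HSP70 to HSP90, was higher by 7.26, 7.48 and 3.40 in shm1, glyk1 and pglp1, and Fes1A, an HSP70 exchange factor, by 4.85, 5.05 and 3.09. MBF1C, a heat-responsive coactivator, rose in shm1 (2.17) and glyk1 (3.68), with -0.08 (adjusted p = 0.847) in pglp1.

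The ATP-dependent chaperones to which small heat shock proteins hand over their clients were sorted by compartment in the same way, a grouping made after their values were seen. Of 12 HSP70, HSP90 and HSP100 genes of the cytosol, 8 were higher in each of shm1, glyk1 and pglp1 LC relative to WT LC, with 1, 1 and 3 lower. Of all tested loci, 31.3%, 27% and 26.1% were higher and 35.1%, 29.1% and 34.5% lower. HSP101, the cytosolic disaggregase, was higher by 3.30 in shm1 (adjusted p = 6.02e-06), 4.67 in glyk1 (adjusted p = 5.52e-07) and 1.58 in pglp1 (adjusted p = 0.00334). HSP70-4 was higher by 5.70, 6.14 and 2.78, and HSP90.1 by 6.41, 6.66 and 3.90. HSP70-5 went the other way, at -1.71 in shm1, -1.34 in glyk1 and -3.58 in pglp1. Of 4 mitochondrial genes, 3 were higher and 0 lower in shm1 and glyk1 and 2 higher and 1 lower in pglp1. mtHSC70-1, a mitochondrial HSP70, was higher by 2.64 in shm1 (adjusted p = 2.45e-05), 3.98 in glyk1 (adjusted p = 1.24e-06) and 5.47 in pglp1 (adjusted p = 7.12e-08), and the mitochondrial disaggregase CLPB4 by 2.14, 3.44 and 3.61. Its paralog mtHSC70-2 was higher in shm1 (1.31) and glyk1 (2.10), with -0.12 (adjusted p = 0.790) in pglp1. HSP90.6 was lower in pglp1 (-1.75, adjusted p = 0.000404).

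Few chloroplast and ER chaperones were called higher. Of 4 chloroplast genes, 0 were higher and 3 lower in shm1, 1 higher and 1 lower in glyk1 and 0 higher and 2 lower in pglp1, where 35.1%, 29.1% and 34.5% of all tested loci were lower in shm1, glyk1 and pglp1. A list of 4 genes is too short to be read against these shares. CLPB3, the plastid disaggregase, was lower, at -1.13, -0.93 and -1.54 log2 units in shm1, glyk1 and pglp1. Of 4 ER chaperones, 0 were higher and 3 lower in shm1, 0 were called in glyk1 and 1 was lower in pglp1; the ER form HSP90.7 was at -3.78 in shm1, -1.08 (adjusted p = 0.139) in glyk1 and -2.43 in pglp1. The list of 13 genes of the ER unfolded protein response includes these 4 ER chaperones, so the counts overlap. Of the 13, 2 were higher and 9 lower in shm1, 2 and 1 in glyk1, 1 and 5 in pglp1 and 0 in hpr1, with medians of -2.17, 0.03, -1.33 and 0.39. The 5 lower of 13 in pglp1 are near the 34.5% of all tested loci, and the 9 lower of 13 in shm1 stand against 35.1%. BZIP60, a transcription factor of the ER unfolded protein response, was higher in shm1 (2.81), glyk1 (4.68) and pglp1 (4.64). In hpr1 LC 0 of these 24 genes were called, and mtHSC70-1 was at 0.86 (adjusted p = 0.238).

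**Figure D4:**
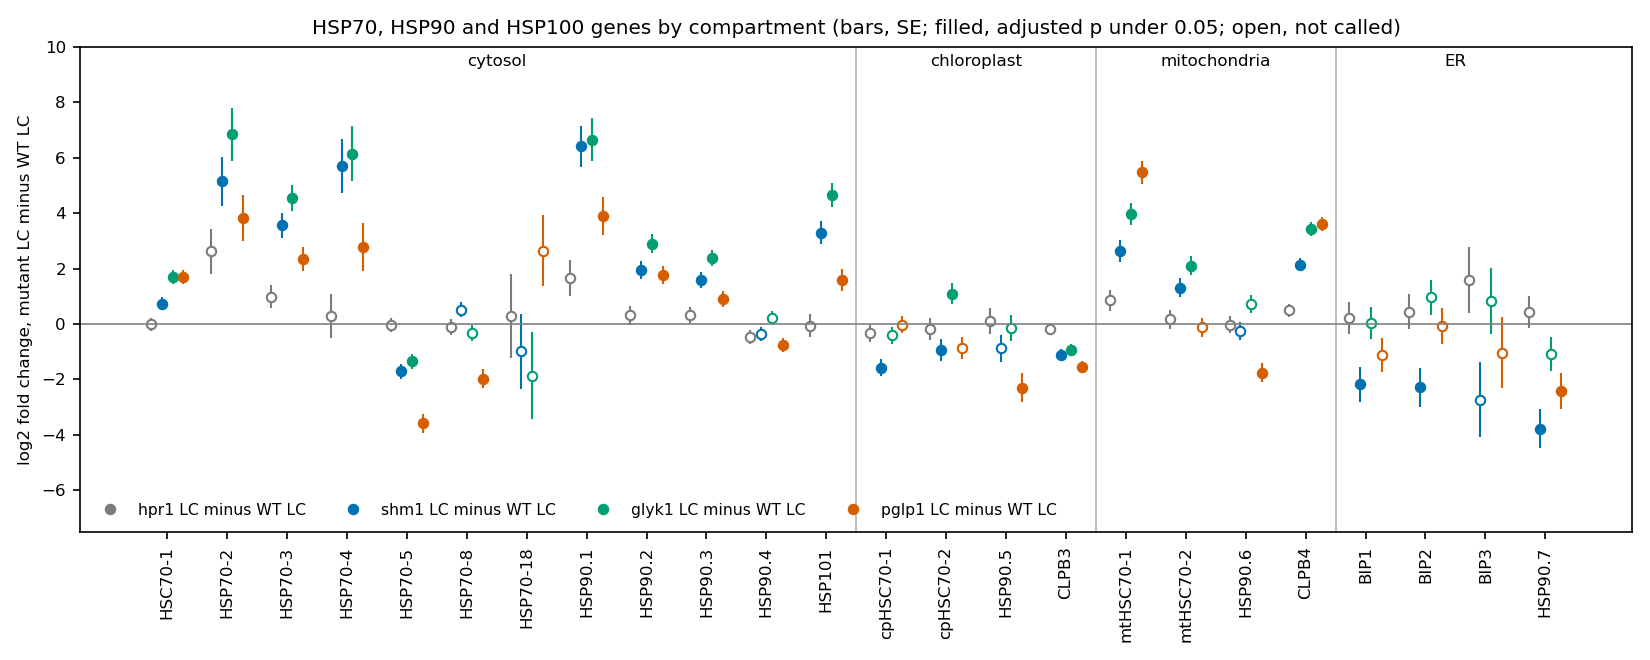
Log2 difference between each mutant in LC and WT in LC for HSP70, HSP90 and HSP100 genes, grouped by compartment, with SE bars; filled points have an adjusted p under 0.05. Most cytosolic points of shm1 and glyk1 are filled and above 0, mtHSC70-1 and CLPB4 are above 0 in the 3 mutants, and CLPB3 is below 0 in them.

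Over the 22 libraries, the genes outside the family whose log2 CPM followed the mean profile of 9 members most closely were AT1G10586 (Pearson r = 0.961), HMA5 (0.960), ADC2 (0.951), AT2G20560 (0.948), AAP3 and AT4G15610 (0.947 each), and NRAMP3 and ChiC (0.946 each). Profiles of single members, looked at after their values were seen, had other neighbours. HSP23.5 was closest to AT5G24640 (0.987), AT4G12735 (0.980), AT2G32020 (0.975), NAC13 (0.974) and UGT74E2 (0.973). HSP23.6 was closest to AT5G46910 (0.985) and AT2G30720 (0.985), and HSP17.6A to AT4G17080 (0.935) and ELF5 (0.932). For HSP18.2 the closest gene, AT2G28790, reached 0.834.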

How the data were processed

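Counts were deposited by the authors as raw read counts per locus and library, per the file headers, beside an RPKM value per locus and library that the authors made from the same counts. Per the submitters' processing notes, bases were called with CASAVA 1.8, TAIR9 or TAIR10 served as builds and edgeR was used; aligner and strand handling: not given in the sources used here. Single reads and read pairs were sequenced on different machines, per the labels' protocols, which do not tie a library to either.

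Counts were the input of every test. RPKM served to recover transcript length. Displaced rows were found from the counts, by their correlation with other libraries along the order of loci. In WT LC replicate 3, 3 blocks (4919 rows) were treated as missing. edgeR 4.0.16 (R 4.3.3) was used with TMM, filterByExpr, a mean for each of 10 groups and robust quasi-likelihood tests. Of 20433 loci, 16818 were fitted in 22 libraries and 3615 in 21, and p-values were adjusted over all of them (Benjamini-Hochberg, threshold 0.05) in each of 23 comparisons. "Called", "rose", "higher by" and "lower by" refer to this threshold unless a p above it is given, and adjusted p-values are from this test. "Rose" is relative to WT LC unless HC is named. CPM are TMM-normalised; CPM per kilobase divides them by transcript length. Intervals (95%) and floors of 3 counts cover counting error only. P-values measure the spread between libraries, which may be partly technical. The fit was tested on simulated data. Same-numbered libraries were checked for deviations in common, and in WT LC and WT HC all 3 pairs correlated (r = 0.47, 0.18 and 0.41). With 3 libraries per group the orders can also match without pairing, so this check cannot decide whether the numbers pair the WT libraries. The other comparisons have 2 pairs each, with r from -0.44 to 0.34, and the labels name no shared batch.

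Members and gene lists were chosen with earlier results of these data known. All members are described; other genes named are taken from the heat-inducible partners, the up to 4 per list with the smallest adjusted p, and the 8 most alike. The sorting of HSP70, HSP90 and HSP100 genes by compartment, further genes of the same lists and the likeness to single members were added after values were seen. Alternatives were RLE scaling, total counts, DESeq2 1.42.0, no filter, all rows as deposited, a replicate block, only the groups compared, and each library left out.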

Additional observations from a re-analysis of the deposited data

Results flagged for a closer look

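The difference between a mutant's response to LC and that of the WT was itself tested (edgeR, log2 scale, mutant response minus WT response), and 15 results for the members passed. In shm1 they were HSP23.6 (12.41), HSP23.5 (7.83, SE 1.51, adjusted p = 0.000556), HSP17.6C (7.37), HSP17.6A (6.78), HSP17.6II (6.70, SE 1.49, adjusted p = 0.00152) and HSP17.4 (6, SE 1.82, adjusted p = 0.0135). In glyk1 they were HSP23.6 (9.19), HSP23.5 (8.60, SE 1.44, adjusted p = 0.000344), HSP17.6A (7.69), HSP17.6II (7.08), HSP17.6C (6.11), HSP17.4 (4.99, SE 1.76, adjusted p = 0.0376) and HSP15.7 (1.61, SE 0.57, adjusted p = 0.0366). In pglp1 they were HSP23.6 (13.78) and HSP23.5 (4.29, SE 1.30, adjusted p = 0.0152). The values of HSP23.6 depend on the prior count, since WT LC had 1 count and WT HC 2 counts. HSP15.7 in glyk1 lost its call in 7 of 10 omissions of 1 library and HSP17.4 in 6 of 10, while HSP23.5 kept its call in all 10 in shm1 and glyk1. The call of HSP23.6 in glyk1 was lost without WT HC replicate 1 (adjusted p = 0.0865) or 3 (0.0817), that of HSP23.5 in pglp1 without pglp1 HC replicate 1 (adjusted p = 0.0639), and that of HSP17.4 in shm1 without shm1 HC replicate 2 (adjusted p = 0.0527).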

How the results depend on the processing

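Counts of members called stayed within 1.5 times the main count in 244 of 289 alternatives, and 45 moved beyond it. For single members, 2356 of 2522 values kept direction and side of the threshold, 134 lost a call, 31 gained one and 1 reversed. DESeq2 called 4 members for hpr1 LC against HC, 2 for hpr1 LC against WT LC, 2 for pglp1 HC against WT HC and 4 for the pglp1 response minus that of WT. Over all loci it called 4736, 1430, 1977 and 9014 of 20336 in these comparisons. The main fit called 3133, 576, 843 and 8903 of 20433. Fitting only the groups compared gave 0 for hpr1 LC against HC, 0 for hpr1 LC against WT LC, 3 for pglp1 LC against WT LC, 4 for the pglp1 response and 1 for glyk1 LC against hpr1 LC. For hpr1 LC against WT LC the count was also 0 with RLE size factors, total counts, no filter, all rows as deposited, and, chosen after seeing the data, without hpr1 LC replicate 1 and WT LC replicate 3 together. Over all loci, RLE size factors, total counts and all rows as deposited called 554, 472 and 360 there. Total counts gave 4 for pglp1 LC against WT LC (13452 of 20372 loci called) and 2 for pglp1 HC against WT HC (705 of 20372). This scaling moved the median of all loci in LC against WT LC to -0.96 in pglp1 (-0.29 with TMM), -0.60 in glyk1 (-0.13) and -0.45 in shm1 (-0.12). All rows as deposited gave 0 for shm1 LC against glyk1 LC (6251 of 20494 loci called) and 2 for pglp1 LC against glyk1 LC (7568 of 20494). Totals over all loci are not given here for fits of only the groups compared, without the filter or with a library left out. The cause was not tested.

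With 1 library left out, members called ranged from 0 to 2 for hpr1 LC against HC, 0 to 1 for hpr1 LC against WT LC, 3 to 6 for pglp1 LC against WT LC, 0 to 1 for pglp1 HC against WT HC, 4 to 7 for the glyk1 response, 1 to 3 for the pglp1 response, 0 to 2 for shm1 LC against glyk1 LC, 0 to 3 for pglp1 LC against glyk1 LC, 0 to 4 for pglp1 LC against shm1 LC, 3 to 6 for shm1 LC against hpr1 LC and 2 to 4 for glyk1 LC against hpr1 LC. HSP17.6A in pglp1 LC against glyk1 LC ranged from -3.76 to 0.22. The replicate block gave 0 members for hpr1 LC against WT LC (330 of 20433 loci called) and stayed within 1.5 times the main count elsewhere. In WT LC against WT HC it called 0 members, as without it. The block fits replicate effects shared by all 10 groups, so it is not a paired test of the WT libraries alone.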
